A study of Mus musculus with 15 samples.

Results

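The transcripts described here were those of the clustered, replication-dependent histone genes of the mouse. They were taken as all gene symbols that begin with Hist1h, Hist2h, Hist3h or Hist4h and that had at least 20 UMIs (unique molecular identifiers, each counting 1 captured transcript) over all 15 tables. Of 66 matching symbols 64 qualified, out of 27803 genes in all. Hist1h1t, with 12 UMIs, and Hist2h2aa2, with 6, fell below the minimum. The 64 genes comprised 5 of linker histone H1, 18 of H2A, 17 of H2B, 11 of H3 and 13 of H4. By symbol, 53 belonged to Hist1 on chromosome 13, 7 to Hist2 on chromosome 3, 3 to Hist3 on chromosome 11 and 1 to Hist4 on chromosome 6. The annotation gives 3 of the 64, Hist1h2aj, Hist1h2al and Hist3h2bb-ps, as pseudogenes. Hist1h2al (chr13:51202727-51203065, GRCm38) lies far from the other Hist1 genes.

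Drop-seq, which captures single cells in droplets with barcoded beads, was applied to 15 mice in 3 groups of 5, all labelled strain C57BL/6. The WT group gave cerebella at day 7 after birth, without treatment. The other two groups were medulloblastomas of Math1-Cre:SmoM2/EYFPloxP/loxP (M-Smo) mice, collected at day 15. They had been injected once a day on 3 days, either with vehicle or with vismodegib, an inhibitor of Smoothened, at 75 mg per kg. In these mice Cre is driven by an Atoh1 promoter sequence in granule neuron progenitors and switches on SmoM2, a constitutively active Smoothened. Both tumor groups carried the same alleles, and WT mice carried neither. WT cells were captured on a PDMS device without spike-in, and tumor cells on a glass device with human HEK 293 cells added, so that genotype, age and device cannot be told apart between vehicle and WT.

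Replication-dependent histones package newly made DNA, and their mRNAs accumulate in S phase. Most of these mRNAs end in a stem-loop in place of a poly(A) tail, and the stem-loop binding protein SLBP takes part in their processing, translation and decay. Some genes of the clusters also give polyadenylated transcripts, which have been described in differentiated cells. Drop-seq primes on oligo(dT), so the levels below are of captured transcripts, which need not follow the total mRNA.

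The annotation gave the stem-loop for most of the genes. A stem-loop motif, spelled GGNNCTTNTNANNGCC with N for any base, was searched in the first GENCODE M21 transcript by name of each gene. Other transcripts of these genes were not searched. The motif was found in 40 of the 64 genes, and in 0.338% of 58797 protein-coding transcripts, with every transcript of a gene counted. The 24 genes without it included the 3 pseudogenes. Some models, such as the 312 bases of Hist1h4k, may hold only the coding length, and a stem-loop past their end would be missed. A polyadenylation signal (AATAAA or ATTAAA) lay in the last 50 bases of 12 of the 64 transcripts, against 50.2% of protein-coding transcripts. The stem-loops of 4 genes that the results turn on are shown with 5 bases on each side, the stem-loop in capitals (GRCm38, 5′ to 3′ on the strand of the gene).
Hist1h3c, chr13:23745042-23745067, minus strand: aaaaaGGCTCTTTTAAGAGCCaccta
Hist1h2ab, chr13:23751567-23751592, plus strand: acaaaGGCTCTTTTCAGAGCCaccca
Hist3h2ba, chr11:58949344-58949369, plus strand: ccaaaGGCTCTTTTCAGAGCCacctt
Hist3h2a, chr11:58955167-58955192, plus strand: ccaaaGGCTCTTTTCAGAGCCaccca

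The first pair rose with cycle markers and the second pair fell, as given below, and the stem-loop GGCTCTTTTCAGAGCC was shared by Hist1h2ab, Hist3h2ba and Hist3h2a. The transcript models went on past the stem-loop by 169 bases in Hist3h2ba, 1643 in Hist3h2a, 11 in Hist1h2ab and 74 in Hist1h3c. Genes that rose also had long models past it, with 1153 bases in Hist1h1e, 330 in Hist1h4i and 151 in Hist1h2ae. The length past the stem-loop thus did not part the genes that rose from those that fell. For Hist3h2ba, Hist3h2a and Hist1h4i the stretches of 30 bases that hold the signal near the 3′ end are shown, with the signal in capitals.
Hist3h2ba, chr11:58949504-58949533, plus strand: attAATAAAtttggttcaattttggccaca
Hist3h2a, chr11:58956793-58956822, plus strand: gcccAATAAAataagagtacgtgtataaca
Hist1h4i, chr13:22040636-22040665, minus strand: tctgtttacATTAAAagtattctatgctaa

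An octamer, ATTTGCAT on either strand, is known from promoters of H2A and H2B genes. It was found in the RefSeq promoter windows (GRCm38.p6, 250 bases before to 50 after the start) of 7 of 15 matched H2A genes and 7 of 14 matched H2B genes. It was found in none of the matched genes of H1 (5), H3 (9) or H4 (12), and in 1.74% of all 32851 promoters.

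Reads of near-identical genes cannot be assigned with certainty, and 45 of the 64 genes shared at least one window of 50 bases near the 3′ end with another of them. For 33 genes most such windows were shared. In 21 genes another gene lay on the opposite strand and in 5 on the same strand, and the study's methods name default settings of the Drop-seq pipeline without stating the use of strand. Values of single genes with shared sequence are therefore uncertain.

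The 15 tables held 2310474 to 17708677 UMIs each. After filtering, 37946 cells were left, 805 to 8103 per animal, with medians of 1082.5 to 2597 UMIs per cell. These cells held 59877 UMIs of the 64 genes, of which 10 genes took 73.1% and 13 genes had fewer than 100 each. No pair of tables shared more than 13 barcodes. Tumors numbered 4 and 5 of both groups stood apart from the other tumors for several histone genes, and values without them are given beside the results that they moved most. Levels are in CPM, the UMIs of a gene per 1000000 UMIs of the summed cells of an animal. The labels give the 15 samples as separate replicates, without more on their source, so p-values measure the spread between these samples.

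The histone genes were a smaller part of the captured transcripts in tumors than in WT cerebella. Their summed level was 1327 ± 160 CPM in WT, 679 ± 106 in vehicle and 554 ± 39.3 in vismodegib (mean ± SD, n = 5 each). WT animals lay between 1177 and 1550 CPM and vehicle-treated tumors between 561 and 851 CPM, without overlap. Vismodegib-treated tumors lay between 493 and 602 CPM and overlapped with vehicle.

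The makeup of the sum differed between groups. Shares of a group were taken from the UMIs summed over its animals, so that animals with more UMIs weighed more. Hist3h2ba, an H2B gene, held 19.1% of histone UMIs in WT, 12.3% in vehicle and 15.9% in vismodegib, and without the tumors numbered 4 and 5 16.1% in vehicle and 21.9% in vismodegib. Hist1h1e, a linker histone gene, held 15.8% in WT, 5.70% in vehicle and 7.02% in vismodegib (7.04% and 5.95% without those tumors). In single animals its share was 14.3% to 20.3% in WT, 4.13% to 13.3% in vehicle and 4.30% to 8.59% in vismodegib. The 2 tumor groups thus overlapped, and their order was not shown. Hist1h2ak, an H2A gene, held 3.29% in WT, 18.6% in vehicle and 15.3% in vismodegib, but 2.26% and 1.09% without the tumors numbered 4 and 5. Its share was 15.7% and 34.1% in vehicle 4 and 5 and 1.57% to 3.15% in the other 3 vehicle-treated tumors, so that the direction against WT turned with those tumors.

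To relate the transcripts to the cell cycle, each cell was thinned to 500 UMIs and classed by UMIs of S phase and G2/M marker genes, none of them a clustered histone gene. Cells with at least 3 UMIs of both lists were termed S+G2M-marker cells. Cells with at least 3 of only one list were S-marker or G2M-marker cells, and cells with at most 1 UMI of both lists together were low-marker cells. Cells between these limits were left unclassed. Low-marker cells numbered 2949 in WT, 5904 in vehicle and 6324 in vismodegib, and S+G2M-marker cells 968, 3524 and 1578. The classes also differed in cell types: markers of granule neurons summed to 4845 ± 788 CPM in low-marker and 1129 ± 166 CPM in S+G2M-marker cells of vehicle-treated tumors (6 genes, n = 5), and markers of microglia to 656 ± 391 and 28.4 ± 19.6 CPM (8 genes). The part of cell types in the differences between classes was not tested.

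Most histone genes were higher in cells with cycle markers. With the animal in the model, edgeR's quasi-likelihood test called 21 of 25 tested histone genes higher and 3 lower in S+G2M-marker than in low-marker cells of vehicle-treated tumors (Benjamini-Hochberg adjusted p under 0.05), where 28.8% of all 10568 genes tested were called higher and 31.4% lower. The median log2 fold change was 2.52 for the 25 histone genes and -0.03 for all genes. Since the filter on low counts can favor genes that are high in one class, all 64 genes were also fitted without it: 51 were called higher and 3 lower, against 14.2% and 18.1% of 24152 genes.

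In vismodegib-treated tumors 13 of 17 tested histone genes were called higher and 3 lower (36.5% and 35.1% of all genes), and in WT cerebella 12 of 15 and 3 (26.4% and 27.6%). Without the filter these counts were 46 and 3 of 64 in vismodegib (16.1% and 23.3% of all genes), and 43 and 3 of 64 in WT (10.2% and 14.4%). Without the tumors numbered 4 and 5, 7 genes were called higher and 2 lower of 11 tested in vismodegib (29.5% and 28.5% of all genes), and 22 and 3 of 26 in vehicle (23.8% and 23.3%).

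The direction was also followed animal by animal. Of the 64 genes 20 were higher in S+G2M-marker than in low-marker cells in all 15 animals, 32 in 10 to 14 animals, 8 in 5 to 9, 1 in 1 to 4 and 3 in none. The last 3 were Hist3h2ba, Hist3h2a and Hist2h3c2, an H3 gene with 21 UMIs in low-marker and 1 in S+G2M-marker cells. By the mean over animals 50 genes were highest in S+G2M-marker cells, 9 in G2M-marker, 2 in S-marker and 3 in low-marker cells. Neither count was made over all genes, so both describe the histone genes alone. Among genes with a polyadenylation signal near the 3′ end, 4 of 12 were higher in S+G2M-marker cells in 13 or more animals and 2 of 12 in at most 2 animals. Among the others these numbers were 35 and 2 of 52.

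**Figure D1:**
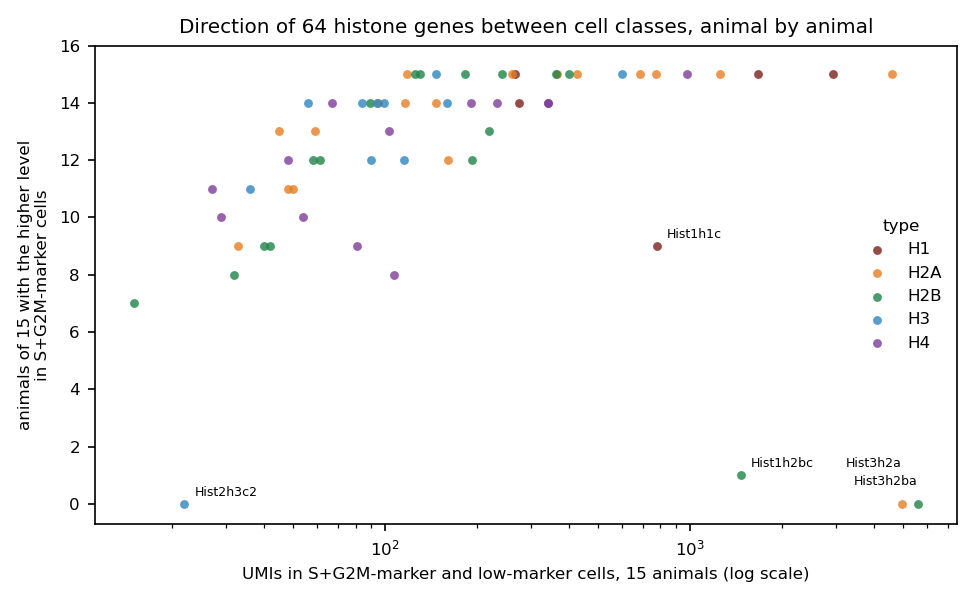
Each point is 1 of 64 histone genes, by its UMIs in S+G2M-marker and low-marker cells (x, log scale) and the number of 15 animals in which its CPM was higher in S+G2M-marker cells (y), colored by histone type. Hist3h2ba, Hist3h2a and Hist1h2bc lie at 0, 0 and 1 animals in spite of many UMIs, while 20 genes lie at 15. Genes outside the histone set were not counted in this way.

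Hist1h3c, an H3 gene, had the largest rise in vehicle-treated tumors among the genes tested. Its level lay between 0 and 1.77 CPM in low-marker cells and between 15.35 and 59.4 CPM in S+G2M-marker cells of the 5 animals, without overlap. The log2 fold change was 4.66 ± 0.30 (SE, edgeR adjusted p = 1.29e-16). In WT it was 4.04 ± 0.26 and in vismodegib 5.31 ± 0.38.

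Hist1h2ab, an H2A gene, had a log2 fold change of 4.04 ± 0.27 in vehicle. It lay between 0.811 and 4.32 CPM in low-marker cells and between 20.5 and 47.9 CPM in S+G2M-marker cells. No animal's low-marker value reached any S+G2M-marker value. Gm44484 lies on the opposite strand, and 70.1% of the 50-base windows near the 3′ end of Hist1h2ab were shared with other histone genes.

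The H2A genes Hist1h2ag and Hist1h2ae and the H4 gene Hist1h4i were among the 10 with most UMIs. Hist1h2ag lay between 1.81 and 8.79 CPM in low-marker and between 29.7 and 97.7 CPM in S+G2M-marker cells of vehicle-treated tumors (log2 fold change 3.52 ± 0.20). Hist1h2ae lay between 2.40 and 8.79 CPM and between 18.4 and 50.3 CPM (2.81 ± 0.21). For both genes the classes did not overlap. Hist1h4i changed by 2.52 ± 0.21, from 5.32 to 12.95 CPM in low-marker cells to 14.1 to 146 CPM in S+G2M-marker cells.

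By histone type, the summed level in vehicle-treated tumors was higher in S+G2M-marker than in low-marker cells for each type but nearly equal for H2B. H1 summed to 53.0 ± 8.02 and 192 ± 63.7 CPM, H3 to 7.98 ± 1.26 and 75.7 ± 23.5 CPM, and H4 to 41.6 ± 20.5 and 133 ± 83.0 CPM in low-marker and S+G2M-marker cells. H2A, which includes Hist3h2a, summed to 185 ± 93.9 and 456 ± 269 CPM, and to 139 ± 66.1 and 263 ± 70.4 CPM without the tumors numbered 4 and 5 (n = 3). H2B, which includes Hist3h2ba and Hist1h2bc, summed to 185 ± 74.5 and 198 ± 29.9 CPM. In vismodegib and in WT, with all animals, the mean H2B sum went the other way and was lower in S+G2M-marker than in low-marker cells. Without the tumors numbered 4 and 5 it was 227 ± 59.6 CPM in low-marker and 159 ± 16.2 CPM in S+G2M-marker cells of vismodegib (n = 3).

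Linker histones bind DNA where it enters and leaves the nucleosome, and their 5 genes did not move alike. Hist1h1a rose most, from 0 to 1.62 CPM in low-marker cells to 10.7 to 19.4 CPM in S+G2M-marker cells of vehicle-treated tumors (log2 fold change 4.53 ± 0.41). Hist1h1b rose by 2.78 ± 0.20, Hist1h1d by 2.44 ± 0.28 and Hist1h1e by 1.78 ± 0.14 on the log2 scale. Each of these 4 passed the test.

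Hist1h1c did not pass it with all 5 animals. Its level was 12.7 to 21.1 CPM in low-marker cells and 10.1 to 28.2 CPM in S+G2M-marker cells of vehicle-treated tumors, with overlap (log2 fold change 0.31 ± 0.18, edgeR adjusted p = 0.146). Without vehicle 4 and 5, however, Hist1h1c was called higher in S+G2M-marker cells, at 0.78 ± 0.24 (edgeR adjusted p = 0.0062). In vismodegib its log2 fold change was -0.03 ± 0.27, and 0.33 ± 0.38 without vismodegib 4 and 5, and it was not called in either fit. Hist1h1c was higher in S+G2M-marker cells in 9 of 15 animals, and it was the one H1 gene with a polyadenylation signal near the 3′ end of its model.

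The 3 genes called lower in S+G2M-marker cells were Hist3h2ba, Hist3h2a and Hist1h2bc, which encode H2B, H2A and H2B. Hist3h2ba was between 59.2 and 216.9 CPM in low-marker cells and between 34.3 and 99.4 CPM in S+G2M-marker cells of vehicle-treated tumors, and it was lower in the latter in each animal. Its log2 fold change was -0.95 ± 0.10 in vehicle, -1.44 ± 0.13 in vismodegib and -1.43 ± 0.10 in WT. The fall was thus seen in all 15 animals.

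Hist3h2a, its neighbor on chromosome 11 (chr11:58954685-58956830, GRCm38), changed by -1.16 ± 0.11 in vehicle, -1.46 ± 0.14 in vismodegib and -2.02 ± 0.14 in WT. It was lower in S+G2M-marker cells in 15 of 15 animals. Its model overlaps Trim17 on the same strand and Gm44313 on the other, so that reads of these genes may be counted with it. In the same classes Hist1h2bc (chr13:23684199-23692908), whose model held no stem-loop, changed by -0.81 ± 0.17, -0.64 ± 0.17 and -0.84 ± 0.21. Without vismodegib 4 and 5 its change in vismodegib was -0.49 ± 0.26 and was not called (edgeR adjusted p = 0.109). In G2M-marker cells the mean of Hist1h2bc was not below that in low-marker cells. These means were 33.2 and 31.2 CPM in vehicle, 44.7 and 40.4 CPM in vismodegib, and 85.4 and 73.3 CPM in WT.

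**Figure D2:**
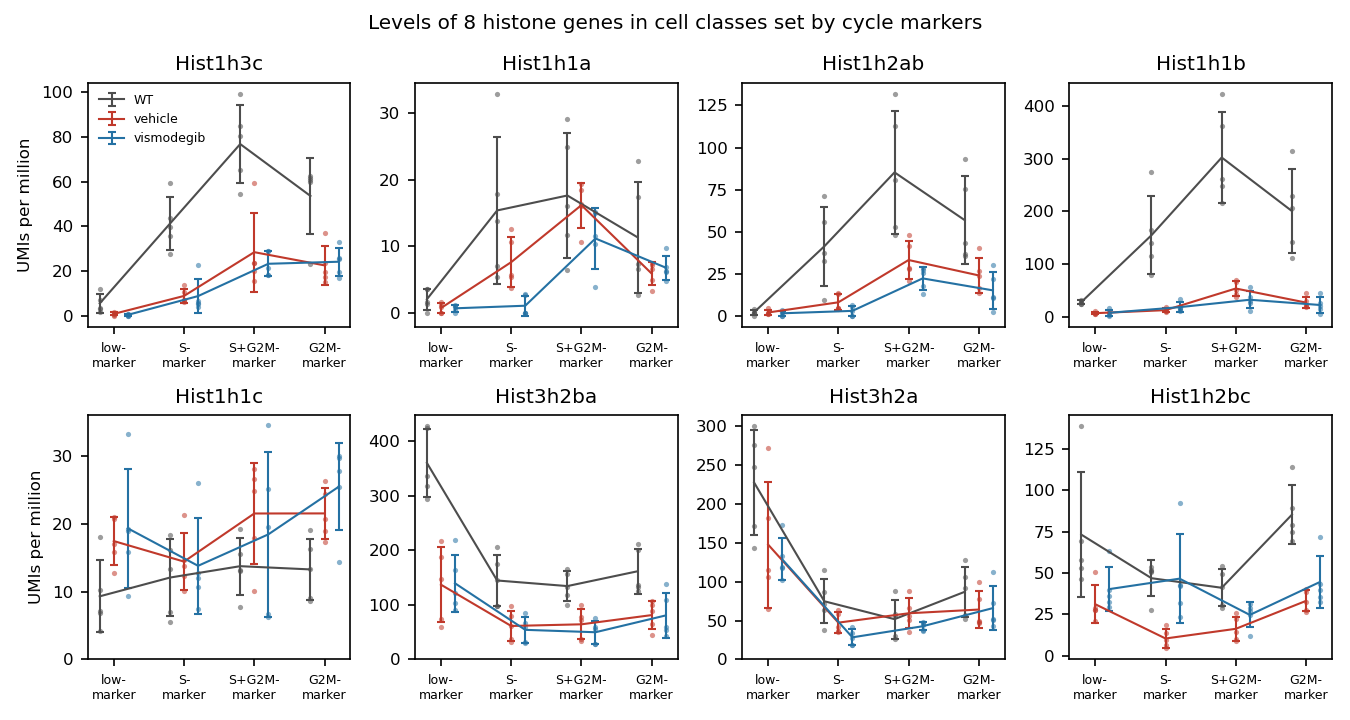
Levels in CPM (y) of 8 histone genes over the 4 classes of cells (x), with each animal as a point, and group means joined by lines with bars of 1 SD (n = 5 per group). Hist1h3c, Hist1h1a, Hist1h2ab and Hist1h1b are lowest in low-marker cells, whereas Hist3h2ba and Hist3h2a are highest there in each group.

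In S-marker cells, which have under 3 UMIs of G2/M markers, 16 of 25 were called higher and 3 lower against low-marker cells of vehicle-treated tumors (24.2% and 25.9% of all genes). In G2M-marker cells the counts were 20 and 2 of 25 (27.4% and 28.5% of all genes). For vismodegib the counts in S-marker cells were 12 and 2 of 17 (30.9% and 30.8% of all genes), and in G2M-marker cells 13 and 2 of 17 (33.5% and 33.0% of all genes). For WT they were 12 and 2 of 15 in S-marker cells (22.6% and 21.9% of all genes) and in G2M-marker cells (23.1% and 24.4% of all genes). Fitted without the filter, S-marker cells had 23 higher and 3 lower of 64 in vehicle (10.1% and 14.3% of all genes). In vismodegib they had 27 and 2 (12.6% and 18.6%), and in WT 27 and 2 (7.16% and 10.8%). At a marker threshold of 2 they had 10 and 3 of 26 in vehicle (20.4% and 20.7%). In vismodegib these were 7 and 3 of 15 (26.3% and 24.1%), and in WT 12 and 2 of 16 (18.4% and 15.8%). The sum over the 64 genes was 473 ± 153 CPM in low-marker, 471 ± 72.5 in S-marker, 1055 ± 218 in S+G2M-marker and 814 ± 136 CPM in G2M-marker cells of vehicle-treated tumors. Without Hist3h2ba and Hist3h2a these sums were 188 ± 22.5, 362 ± 71.1, 931 ± 216 and 669 ± 138 CPM. The equal sums of low-marker and S-marker cells thus held different genes.

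The genes that make, process and deposit histones were examined in the same cells. Of 14 genes of histone expression and 3′ processing, 13 were tested in vehicle-treated tumors, and 10 were higher and none lower in S+G2M-marker cells, where 28.8% of all genes tested were higher and 31.4% lower. Slbp, whose protein binds the stem-loop, rose by 2.15 ± 0.14 on the log2 scale, from 18.4 ± 7.09 to 80.8 ± 14.6 CPM. Eri1, an exonuclease that acts on the stem-loop end, rose by 1.15 ± 0.10, and Casp8ap2, a factor of the histone locus body, by 1.09 ± 0.07.

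Of 20 histone chaperones and partners 16 rose and 1 fell, against the same 28.8% and 31.4% of all genes. Asf1b, which carries H3 and H4, rose by 4.57 ± 0.21, and Chaf1a and Chaf1b, subunits of the chromatin assembly factor CAF-1, by 3.00 ± 0.10 and 2.84 ± 0.13. Atrx, a remodeler that works with the replication-independent H3.3, changed by -0.09 ± 0.04. Of 11 histone genes outside the clusters, listed as replication-independent, 9 rose and none fell (28.8% and 31.4% of all genes). Among them were H2afx (3.52 ± 0.07), Cenpa (3.32 ± 0.09) and H2afz (2.14 ± 0.08). The list does not show that each of them is made apart from replication.

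Vismodegib-treated and vehicle-treated tumors were compared next, to ask how the histone transcripts stood after 3 doses. Over all cells 4 of 40 tested histone genes were called lower in vismodegib and none higher by edgeR, where 4.69% of all 13190 genes tested were called lower and 9.23% higher. DESeq2 called 5 lower and none higher, against 7.5% and 11.3% of all genes. At an unadjusted p under 0.05 edgeR had 9 histone genes, and the share of all genes at that limit was not computed. The median log2 fold change was -0.51 over the 40 genes and -0.0022 over all genes. Of the 64 genes 55 had the lower mean in vismodegib. The share of all genes with a lower mean was not computed, and histone genes with shared sequence are not separate counts.

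All 4 genes encode H2A or H2B. Hist1h2bj was at 25.7, 10.3, 10.7, 11.0 and 8.30 CPM in vehicle 1 to 5 and between 3.47 and 6.99 CPM in vismodegib, so that the groups did not overlap (log2 fold change -1.18 ± 0.32, edgeR adjusted p = 0.0267). Hist1h2bm was 7.44 ± 2.11 CPM in vehicle and 3.71 ± 0.86 in vismodegib, again without overlap (-1.04 ± 0.29, adjusted p = 0.0289). Hist1h2ab was 14.4 ± 4.02 and 7.48 ± 2.16 CPM (-0.94 ± 0.27, adjusted p = 0.0317, and 0.0523 with the replicate number as a block), and Hist1h2bk 9.36 ± 2.72 and 5.22 ± 1.20 CPM (-0.88 ± 0.27, adjusted p = 0.0451).

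These calls were close to the threshold. Leaving out single tumors left 1 to 4 calls, with 1 call without vehicle 1, vehicle 4, vismodegib 1 or vismodegib 5. Without the tumors numbered 4 and 5 of both groups no gene of 36 tested was called by edgeR, where 2.16% of all genes were called higher and 1.08% lower. At an unadjusted p under 0.05 there were 5 histone genes, without a share of all genes at that limit. The 4 log2 fold changes were then -1.48 for Hist1h2bj, -0.89 for Hist1h2bm, -1.25 for Hist1h2ab and -0.56 for Hist1h2bk.

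The shares of low-marker and S-marker cells differed between the treatments, and those of S+G2M-marker and G2M-marker cells did not pass the test. Low-marker cells were 33.9 ± 3.46% of cells in vehicle and 48.2 ± 9.94% in vismodegib (2-sided exact permutation test, n = 5 each, p = 0.0159, adjusted over 4 classes p = 0.0317). S-marker cells were 12.2 ± 1.64% and 8.57 ± 2.58% (exact permutation p = 0.0159, adjusted p = 0.0317). S+G2M-marker cells were 18.6 ± 2.28% and 13.8 ± 3.86% (exact permutation adjusted p = 0.0847), and G2M-marker cells 17.8 ± 2.36% and 13.7 ± 3.81% (exact permutation adjusted p = 0.103). Without any 1 vehicle-treated tumor the adjusted exact permutation p for low-marker and S-marker cells was between 0.0529 and 0.0847. Low-marker cells were 57.7% and 59.0% of cells in vismodegib 4 and 5 and 35.8% to 45.6% in vismodegib 1 to 3. Without the tumors numbered 4 and 5 the share of low-marker cells was 33.9 ± 0.65% in vehicle and 41.5 ± 5.06% in vismodegib, without overlap (2-sided exact permutation test, n = 3 each, p = 0.1, the smallest that 3 against 3 allows). That of S-marker cells was then 12.5 ± 2.21% and 10.4 ± 0.79% (exact permutation p = 0.2), that of S+G2M-marker cells 19.2 ± 1.87% and 16.6 ± 1.12% (exact permutation p = 0.2), and that of G2M-marker cells 16.7 ± 2.07% and 16.2 ± 2.48% (exact permutation p = 1). The shares are of all cells of a tumor. Markers of granule neuron progenitors summed to 3921 ± 228 CPM in vehicle and 2892 ± 152 CPM in vismodegib, markers of microglia to 266 ± 138 CPM in vehicle and 698 ± 240 CPM in vismodegib and markers of granule neurons to 2621 ± 408 and 4706 ± 1064 CPM, and their part in the differences was not tested.

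Within a class few single genes were called. No histone gene was called by edgeR in S+G2M-marker cells (24 tested, 1.68% of all genes called), G2M-marker cells (18 tested, 2.2%) or low-marker cells (8 tested, 16.6%). At an unadjusted p under 0.05 there were 2, 0 and 1 genes, without a share of all genes at that limit, and DESeq2 called 0 in each class. In S-marker cells Hist1h2bc was called higher in vismodegib, 1 of 8 tested against 0.619% of all genes, and none lower against 0.999% (log2 fold change 1.98 ± 0.40, edgeR adjusted p = 0.0139). Fitted without the filter on low counts, 1 of 64 was called higher and none lower (0.787% and 0.989% of all genes). Hist1h2bc was at 4.56 to 18.4 CPM in vehicle and 23.8 to 92.5 CPM in vismodegib, without overlap. In the same cells markers of microglia summed to 117 ± 92.5 CPM in vehicle and 370 ± 241 CPM in vismodegib (8 genes) and markers of granule neurons to 1443 ± 95.2 and 1988 ± 432 CPM (6 genes), and their part in the result was not tested. Hist1h2bc was also at a ratio of 1.61 over all cells, where it did not pass the test (log2 fold change 0.63 ± 0.26).

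The histone sum in S+G2M-marker cells was 1055 ± 218 CPM in vehicle and 866 ± 299.98 CPM in vismodegib (n = 5 each), and the groups overlapped, with vismodegib 4 and 5 at 1103 and 1264 CPM. With these 2 numbers left out in both groups it was 922 ± 132 CPM in vehicle, from 819.7 to 1072 CPM, and 655 ± 76.2 CPM in vismodegib, from 573 to 723 CPM, without overlap (n = 3 each). Without Hist3h2ba and Hist3h2a as well, these means were 801 ± 156 and 547 ± 73.1 CPM. The sums were not tested. Tumors numbered 4 and 5 were singled out after histone values were seen. Hist1h2ak, at 366 and 500.4 CPM in vehicle 4 and 5 and 320.1 and 638 CPM in vismodegib 4 and 5, is part of the sum. The lack of overlap thus came with a choice made on values that enter the sum. In the same S+G2M-marker cells of all 5 tumors a group, markers of granule neuron progenitors summed to 3872 ± 245 CPM in vehicle and 3267 ± 217 CPM in vismodegib, without overlap, and markers of granule neurons to 1129 ± 166 and 1554 ± 205 CPM, and their part in the difference was not tested.

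With every animal weighted to the class makeup of the vehicle group, the ratio of the vismodegib to the vehicle mean was 0.553 for Hist1h2bj, against 0.443 unweighted. For the sum over the 64 genes it was 0.893, against 0.815. These ratios are descriptions, without a test.

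None of 13 tested genes of histone expression and processing and none of 20 chaperones was called by edgeR between the treatments (all genes called: 9.23% higher and 4.69% lower). At an unadjusted p under 0.05 there were 0 and 4 of them, without a share of all genes at that limit. Of the histones listed as replication-independent Cenpa, the centromeric H3, fell by 0.68 ± 0.21 and H1f0, a linker histone, by 0.51 ± 0.13 on the log2 scale (2 of 11).

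Whether the difference between S+G2M-marker and low-marker cells itself depended on treatment was tested with an interaction term. The log2 fold change was higher in vismodegib for 3 and lower for 1 of 25 tested histone genes, which is not above the 12.4% and 10.5% of all genes called in these directions. Hist1h2ak differed by 1.55 ± 0.21 on the log2 scale (edgeR adjusted p = 6.23e-08), Hist1h2ai by 1.16 ± 0.44 (adjusted p = 0.048) and Hist1h2ae by 1.12 ± 0.38 (adjusted p = 0.0252). Hist3h2ba, which fell in both treatments and further in vismodegib, differed by -0.57 ± 0.17 (adjusted p = 0.0105).

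DESeq2 called Hist3h2ba alone of the 4 (-0.56, DESeq2 adjusted p = 0.0276), with Hist1h2ak at 1.42 (0.0747), Hist1h2ae at 1.06 (0.0703) and Hist1h2ai at 1.23 (0.0843). Without vismodegib 5, 1 of these calls was left, that of Hist1h2ak, and without vehicle 5, 2, those of Hist1h2ak and Hist3h2ba. None was left without the tumors numbered 4 and 5. Hist1h2ak was then at 0.20 ± 0.65 (edgeR adjusted p = 0.91), Hist1h2ae at -0.62 ± 0.66, Hist1h2ai at 0.98 ± 0.91 and Hist3h2ba at -0.49 ± 0.23. Hist1h1b was instead called, as 1 of 23 tested genes (5.19% of all genes higher and 3.73% lower), at -1.67 ± 0.48 (edgeR adjusted p = 0.0187), and was singled out after its value was seen.

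The tumors numbered 4 and 5 differed from the rest in both treatments. Hist1h2ak (chr13:21753435-21753827) was at 20.9, 13.3, 8.81, 133.8 and 231.3 CPM in vehicle 1 to 5 and at 3.29, 6.95, 7.35, 85.6 and 157.7 CPM in vismodegib 1 to 5. WT cerebella lay between, at 25.7 to 62.7 CPM. The same 4 tumors were highest in S+G2M-marker cells, with 366, 500.4, 320.1 and 638 CPM against at most 46.7 CPM in the other 6 tumors.

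The H4 genes Hist1h4i and Hist1h4c were lowest in those 4 tumors. Hist1h4i was at 9.12 and 10.3 CPM in vehicle 4 and 5 and at 5.56 and 7.94 CPM in vismodegib 4 and 5, against 17.3 to 73.9 CPM in the other tumors. Hist1h4c was between 0.858 and 4.09 CPM in the 4 tumors and between 8.57 and 30.5 CPM in the others. The labels name no batch, and these tumors were singled out after their values were seen. For Hist1h2ak, 52.3% of its windows of 50 bases were shared with other histone genes, and Gm44454 lies on the opposite strand.

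**Figure D3:**
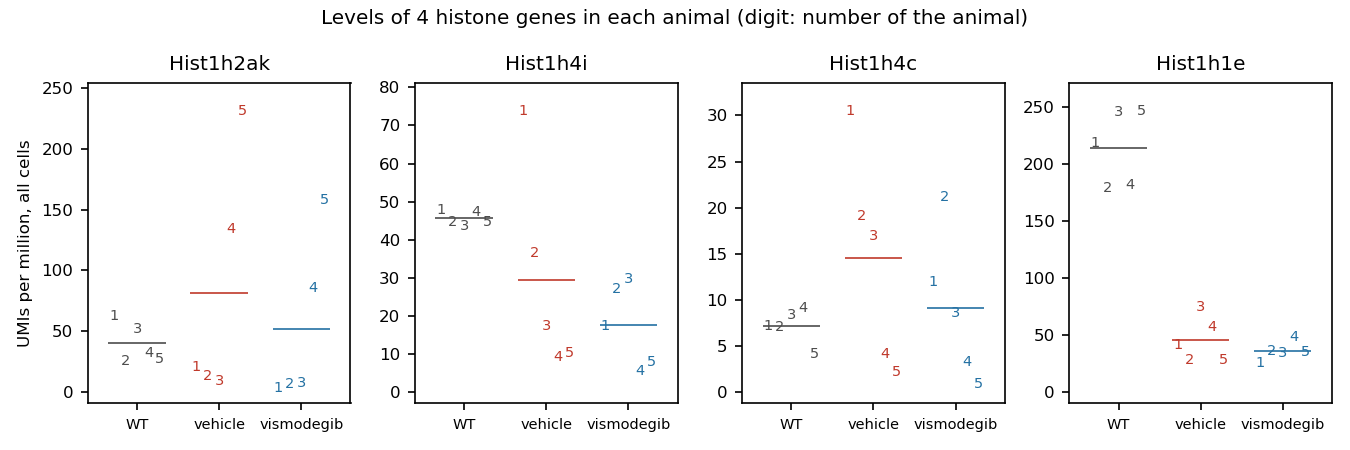
Levels in CPM over all cells (y) of 4 histone genes in each animal of the 3 groups (x), with the animal's number as the mark and the group mean as a line. Hist1h2ak is at 85.6 CPM or more in the tumors numbered 4 and 5 and at 20.9 CPM or less in the others, and Hist1h4i and Hist1h4c are lowest in the same 4 tumors.

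Vehicle-treated tumors were compared with WT cerebella to set the tumor levels against the developing tissue. Over all cells 16 of 45 tested histone genes were lower and 3 higher in tumors (25.0% and 23.0% of all 13636 genes tested), with a median log2 fold change of -0.46 over the 45 genes and 0.03 over all genes. Fitted without the filter, 14 of 64 were lower and 3 higher (16.7% and 15.9% of all genes). Without the tumors numbered 4 and 5, 18 of 49 were lower and 5 higher (23.0% and 22.2% of all genes). Hist1h2ak, at 1.03 ± 0.71 and not called with all animals, was then lower in vehicle, at -1.51 ± 0.34 (edgeR adjusted p = 0.00255).

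The makeup of cell types differed beside these counts. Markers of GABAergic neurons (7 of 7 genes found) summed to 1046 ± 261 CPM in WT, with animals from 710.5 to 1421 CPM, and to 21.6 ± 5.46 CPM in vehicle, from 12.9 to 25.7 CPM. Markers of granule neuron progenitors (7 of 7) summed to 1696 ± 169 CPM in WT and 3921 ± 228 CPM in vehicle, those of granule neurons (6 of 6) to 4472 ± 452 and 2621 ± 408 CPM, and those of fibroblasts (5 of 5) to 541 ± 138 and 136 ± 58.8 CPM. In low-marker cells the GABAergic markers were at 2456 ± 822 and 32.4 ± 11.1 CPM, and in S+G2M-marker cells at 138 ± 15.7 and 13.5 ± 5.51 CPM. The part of these cell types in the differences of histone genes was not tested.

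Of the 5 linker histone genes 2 were called lower and 2 higher in vehicle, where 25.0% of all genes tested were lower and 23.0% higher. Hist1h1b was between 86.4 and 169.8 CPM in WT and between 18.1 and 31.7 CPM in vehicle, without overlap (log2 fold change -2.50 ± 0.22, edgeR adjusted p = 9.94e-07). Hist1h1e was at 214 ± 32.9 CPM in WT and 45.9 ± 19.97 CPM in vehicle (-2.25 ± 0.26, adjusted p = 1.1e-05). Its model overlaps Hist1h2be and Gm11398 on the same strand.

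Hist1h1c and Hist1h1d went the other way. Hist1h1c rose from 11.5 ± 1.72 to 19.0 ± 2.84 CPM (0.70 ± 0.19, edgeR adjusted p = 0.00851) and Hist1h1d from 3.86 ± 2.03 to 9.09 ± 3.61 CPM (1.134 ± 0.39, adjusted p = 0.0252). Hist1h1a was at 8.40 ± 3.75 and 6.54 ± 1.52 CPM, with overlap, and did not pass the test.

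Of the core histones, Hist1h4b was the third gene that rose, from 2.20 ± 0.44 to 6.33 ± 1.76 CPM (1.48 ± 0.31, edgeR adjusted p = 0.00136). Hist1h2aa had the largest fall among them (-2.42 ± 0.53, adjusted p = 0.00164), on 99 UMIs in all cells. Hist3h2ba was at 248 ± 52.9 CPM in WT and 93.5 ± 43.3 CPM in vehicle (-1.42 ± 0.28, adjusted p = 0.000839), and Hist1h2bc at 68.9 ± 20.9 and 25.0 ± 8.46 CPM (-1.48 ± 0.25, adjusted p = 0.000227).

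The comparison was repeated within classes. S+G2M-marker cells were 13.2 ± 1.499% of cells in WT and 18.6 ± 2.28% in vehicle, and low-marker cells 40.9 ± 1.21% and 33.9 ± 3.46%. The histone sum was lower in vehicle than in WT within each class, without overlap of the animals. It was 2034 ± 338 CPM in WT and 1055 ± 218 CPM in vehicle in S+G2M-marker cells, 1231 ± 192 and 471 ± 72.5 CPM in S-marker cells, 1653 ± 223 and 814 ± 136 CPM in G2M-marker cells, and 931 ± 102 and 473 ± 153 CPM in low-marker cells. In S+G2M-marker cells 13 of 23 tested histone genes were lower and 1 higher in vehicle (16.6% and 14.9% of all genes), and in low-marker cells 5 of 8 were lower and none higher (19.6% and 17.4%). Fitted without the filter, 19 of 64 were lower and 2 higher in S+G2M-marker cells (11.1% and 11.3% of all genes). In low-marker cells 8 of 63 were then lower and 3 higher (12.6% and 12% of all genes). Hist1h1b was lower by 2.65 ± 0.22 and Hist1h1e by 2.32 ± 0.27 on the log2 scale in S+G2M-marker cells. Slbp was lower in vehicle over all cells (-0.98 ± 0.18), as 1 of 13 tested genes of histone expression and processing, of which 5 were higher (25.0% of all genes lower and 23.0% higher).

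**Figure D4:**
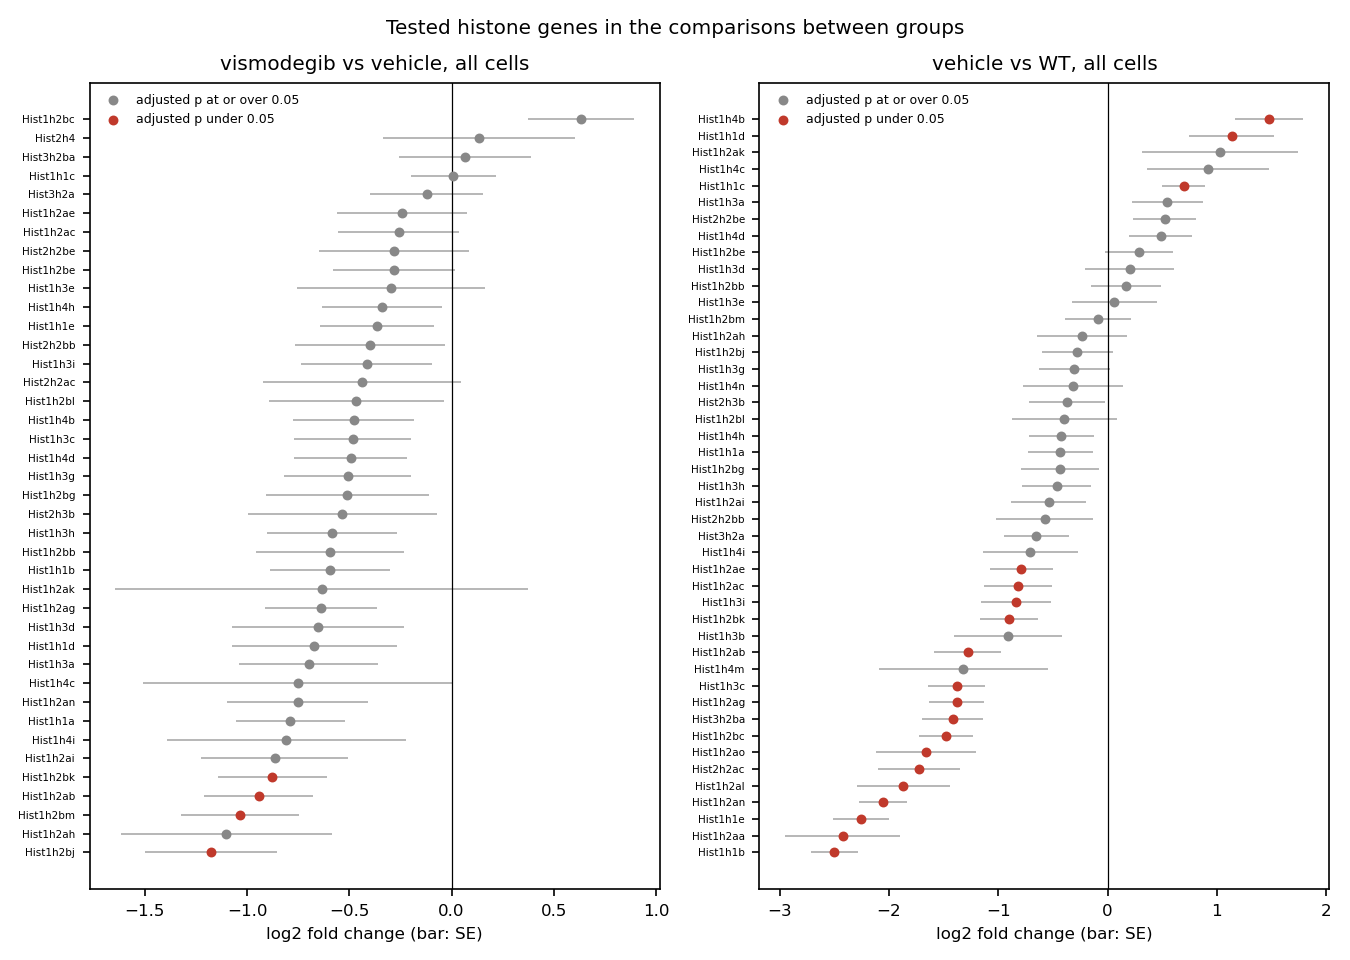
Log2 fold changes (x, bars of 1 SE) of the tested histone genes (y) for vismodegib against vehicle (40 genes) and vehicle against WT (45 genes) over all cells, with genes of adjusted p under 0.05 in red. Red points are 4 lower genes in the first panel, and 16 lower and 3 higher genes in the second.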

How the data were processed

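The UMI counts of 15 mice were used as the authors deposited them. To make these counts, the authors ran Drop-seq Tools with STAR, selected barcodes with mostly mouse transcripts on a joint hg19 and mm10 reference (tumors only), and aligned to mm10 with the transgenes added. The deposited counts were not normalized. Cells needed 500 UMIs, 500 genes, and UMIs, genes and mitochondrial share no more than 5 SD over their animal's median. No doublet caller was run. Counts were summed per animal and class (10 or more cells) and tested with edgeR 4.0.16 in R 4.3.3 (TMM, filterByExpr, quasi-likelihood, Benjamini-Hochberg over all genes tested, threshold 0.05). Alternatives were DESeq2 1.42.0, its size factors, no filter, a minimum of 1000 UMIs, marker thresholds of 2 and 4, a replicate block, a term for 2 sets of tumors, and each animal left out. Fits were also run on simulated data with the same mean in all animals and few genes changed. Those data differ from the real classes, where many genes changed, so they cannot vouch for the fits between classes. Genes named with values were the 10 with most UMIs, the H1 genes, up to 3 called per direction between groups, the 3 highest and 3 lowest between classes in vehicle, and up to 3 called per list and direction. Hist1h4c, Hist1h2ai, Hist1h2bk and others outside this rule were named after their values were seen. The histone genes and lists were chosen with earlier results of these data known. Annotation was GENCODE M21 (GRCm38).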

Additional observations from a re-analysis of the deposited data

Results flagged for a closer look

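Within a group of 5 animals, 1 animal stood far from the rest (Dixon's test) in 4 of 54 groups of named genes examined, where chance gives about 1 in 20. In vehicle, the highest animal was at 25.7 CPM for Hist1h2bj (median 10.7), 22.3 CPM for Hist1h3c (median 11.5) and 23.9 CPM for Hist1h1c (median 18.3). In vismodegib, the highest animal was at 121 CPM for Hist3h2a (median 84.5).

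The difference between S+G2M-marker and low-marker cells differed between treatments, by the interaction test, for Hist1h2ak (1.55 on the log2 scale), Hist1h2ai (1.16), Hist1h2ae (1.12) and Hist3h2ba (-0.57). These are 3 of 25 genes in the higher and 1 of 25 in the lower direction, not above the 12.4% and 10.5% of all genes. None of the 4 was called without the tumors numbered 4 and 5, and DESeq2 called Hist3h2ba alone of the 4.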

How the results depend on the processing

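Counts of called histone genes stayed within 1.5 times the value reported above under most alternatives. Without the filter on low counts, calls against low-marker cells were 54 (S+G2M-marker) and 44 (G2M-marker) in vehicle, 29 (S-marker), 49 (S+G2M-marker) and 49 (G2M-marker) in vismodegib, and 29, 46 and 44 in WT, each of 64 tested, where 7.16% to 16.1% of all genes were higher and 10.8% to 23.3% lower. For vehicle against WT in low-marker cells they were 11 of 63, 8 lower and 3 higher (12.6% and 12% of all genes). Without the tumors numbered 4 and 5, a choice made after seeing the data, calls in vismodegib were 6 (S-marker), 9 (S+G2M-marker) and 7 (G2M-marker) of 11 tested, where 23.9% to 29.5% of all genes were higher and 22.9% to 28.5% lower. They were 0 of 36 between the treatments over all cells (2.16% and 1.08%) and 1 of 23 for the interaction (5.19% and 3.73%). Hist1h2ak against WT was then at -1.51 (edgeR adjusted p = 0.00255) in place of 1.03, and Hist1h2ae in the interaction at -0.62. Cells of at least 1000 UMIs gave 2 calls between the treatments, both lower (4.07% of all genes), DESeq2 gave 1 for the interaction, lower (8.89%), and a marker threshold of 4 gave 9, all lower, of 18 for vehicle against WT in S+G2M-marker cells (13.9%). Leaving out single animals gave 1 to 4 calls between the treatments and 1 to 4 for the interaction.

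The difference in share (vismodegib minus vehicle, percentage points) was -7.50 for S+G2M-marker cells at a threshold of 2, -2.53 for S-marker and -5.59 for G2M-marker cells at 4, and 13.5 for low-marker and -3.39 for S-marker cells with at least 1000 UMIs. S+G2M-marker cells at 2 and G2M-marker cells at 4 then passed (exact permutation adjusted p = 0.0423 and 0.0317). S-marker cells at 4 no longer passed (exact permutation adjusted p = 0.0714). With at least 1000 UMIs neither low-marker nor S-marker cells passed (exact permutation adjusted p = 0.159 and 0.0635). Without the tumors numbered 4 and 5 the difference in share was 7.52 (low-marker), -2.13 (S-marker), -2.55 (S+G2M-marker) and -0.56 (G2M-marker), in a design of 3 against 3 that cannot pass the threshold. Leaving out single animals gave 11.6 to 17.4 (low-marker), -4.28 to -2.75 (S-marker), -5.71 to -3.71 (S+G2M-marker) and -5.40 to -3.12 (G2M-marker). The cause of these changes was not tested.

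Deviations of same-numbered vehicle and vismodegib tumors were correlated over 7771 genes. The correlation r was -0.24 to 0.05 for numbers 1 to 3, and 0.39 and 0.44 for 4 and 5. The replicate numbers were thus not shown to pair all animals. Tumors of different numbers were not compared in this way, so the values for 4 and 5 cannot show pairing. With the replicate number as a block, 3 histone genes were lower between the treatments (4.46% of all genes), Hist1h2ab no longer called (edgeR adjusted p = 0.0523), and 3 higher and 14 lower against WT (19.2% and 22.7%). A further fit held a term for 2 sets of tumors known from an earlier analysis (vehicle 1 and 3 and vismodegib 1 to 3 against the rest). The labels name no such sets, and vehicle 2 was here placed with the tumors numbered 4 and 5, unlike above. With this term 5 of 40 were lower between the treatments (7.54% of all genes), Hist1h1a included (-0.80, edgeR adjusted p = 0.0421). In the interaction 3 were higher and 1 lower (12.6% and 10.9%). Depth limits the low genes, as 13 of 64 had under 100 UMIs.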
